A study of Mus musculus with 3 samples.

Results

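Mixed-allele positions on mouse chromosome 4 were examined in genomic DNA of 3 haploid embryonic stem cell (ESC) lines, in which 555 exonic positions showed both the reference and an alternate base among the reads of every line. They were chosen by measured values, namely a depth of at least 10 reads and a share of alternate reads from 5% to below 80% in each of the 3 lines, and positions whose deposited gene name starts with Olfr or Vmn were left out. Of the 11544 single-base positions in the table, 1242 lie on chromosome 4, and 1200 of these had the depth in all 3 lines and no such receptor name. The rule kept 46.2% of those 1200 positions, 30.6% of the positions tested on other chromosomes and 32.5% of all positions tested. A further 401 positions of chromosome 4 had an alternate share of at least 80% in all 3 lines and served as the comparison.

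The 3 lines are androgenetic haploid ESCs, which hold a single paternal set of chromosomes and were grown in 2i and LIF, with C57BL/6 as the labelled strain. O48 is the WT line at passage 40, which already lacks the H19 DMR and the IG-DMR, and these deletions are shared by all 3 lines. The DSM line (ΔDSM-O48-1, passage 60) is knocked out for Dmpk, Six5 and Mbnl1, and the DSMD line (ΔDSMD-O48-2, passage 70) was made from it by also mutating Dmwd. Each genotype was represented by 1 cell line and 1 library, so no value below has a replicate, and genotype, passage and library cannot be told apart. DNA was sequenced, so no marker gene could be used to check the cell type.

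Distal mouse chromosome 4 holds a tandem array of KRAB zinc finger genes, a family that expands by duplication and whose proteins bind DNA, many of them silencing transposable elements. Each C2H2 finger folds around a zinc ion held by paired cysteines and paired histidines, and the helix positions -1, 2, 3 and 6 of each finger contact the DNA bases. The vomeronasal type 2 receptors are another duplicated family, which detects pheromones, with Vmn2r129 and Vmn2r125 at the end of the chromosome.

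The sequences below are shown because they hold the alternate base of a mixed position at another place of the same genome build. The coding stretch of Zfp993 at chr4:146719090-146719330 (GRCm38.p6, plus strand) and that of Zfp978 at chr4:147391042-147391282 (plus strand) lie 671952 bp apart and have 241 bases each. Capitals mark the 3 mixed positions of Zfp993 and the same places in Zfp978. The stretches differ at 3 bases, all 3 are mixed positions, and at all 3 the base of Zfp978 is the alternate base found in the reads (S572G, G600S and P642S in Zfp993). The stretch was chosen for these matches. The 31 bases around S572G with the alternate base were found elsewhere in the build 15 times, so Zfp978 is not the only match.
Zfp993: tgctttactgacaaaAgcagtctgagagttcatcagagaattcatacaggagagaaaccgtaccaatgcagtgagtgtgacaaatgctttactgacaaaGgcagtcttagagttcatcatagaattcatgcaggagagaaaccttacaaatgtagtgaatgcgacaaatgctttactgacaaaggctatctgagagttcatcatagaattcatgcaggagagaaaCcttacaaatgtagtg
Zfp978: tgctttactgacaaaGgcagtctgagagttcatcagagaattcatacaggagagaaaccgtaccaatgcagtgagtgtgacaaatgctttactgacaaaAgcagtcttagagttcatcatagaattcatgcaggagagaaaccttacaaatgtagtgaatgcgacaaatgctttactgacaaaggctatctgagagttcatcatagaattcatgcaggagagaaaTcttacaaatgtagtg

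Within Zfp991, the deepest nonsynonymous position (G147179483C, S439T) was set against a place 168 bp further along, where the repeat of fingers in the same coding sequence carries the alternate base. The 31 bases around S439T were found elsewhere in the build 6 times with the alternate base and 105 times with the reference base. The place shown is the nearest plus-strand match on chromosome 4 with the alternate base. The windows are chr4:147179453-147179513 and chr4:147179621-147179681 (GRCm38.p6, plus strand), with the compared base in capitals, and this base is the single difference over 61 bases.
Zfp991, S439T: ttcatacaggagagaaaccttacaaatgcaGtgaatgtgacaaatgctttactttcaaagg
Zfp991, further finger: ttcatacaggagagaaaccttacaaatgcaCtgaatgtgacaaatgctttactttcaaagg

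The predicted genes Gm13246 and Gm13035, in which RefSeq places these bases outside exons, have mixed positions 228880 bp apart, and each holds at a mixed position the alternate base of the other. The 31-base windows are chr4:145844527-145844557 and chr4:146073407-146073437 (GRCm38.p6, plus strand), and the capital marks the mixed position. Of the reads, 23 of 97 in O48, 28 of 109 in DSM and 16 of 99 in DSMD had G in place of T at Gm13246. At Gm13035, 10 of 65, 11 of 74 and 10 of 63 reads had T in place of G. In all, 3 such reciprocal pairs were found, and the other pairs joined Zfp981 with Zfp979 and Zfp991 with Zfp984.
Gm13246: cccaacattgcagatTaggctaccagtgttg
Gm13035: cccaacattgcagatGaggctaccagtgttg

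The positions lay in few places. By a gap of over 100000 bp between neighbours they formed 28 groups, and 6 groups between 145622166 and 147809787 held 394 positions (71.0%) in 36 genes. This interval of 2187622 bp is the zinc finger gene array. A single group of 132 positions (23.8%) covered 22307 bp between 156331105 and 156353411, close to the end of the chromosome at 156508116. The other 29 positions (5.23%) were scattered over 21 groups from 3258353 to 150143815. Neighbours were close, with a median distance of 29.5 bp to the next position, and 484 positions (87.2%) had another within 150 bp, so many share reads and are not independent measurements.

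No position of the comparison kind was found inside these intervals. Of 495 positions with the depth in the array interval, 394 (79.6%) were mixed in all 3 lines, 0 had a share of at least 80% in all 3, and the rest met neither rule. In the interval at the end of the chromosome, 132 of 154 (85.7%) were mixed, 0 reached 80% in all 3 lines and 22 met neither rule. On the rest of chromosome 4, 29 of 551 positions (5.26%) were mixed and 401 (72.8%) had at least 80%.

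**Figure D1:**
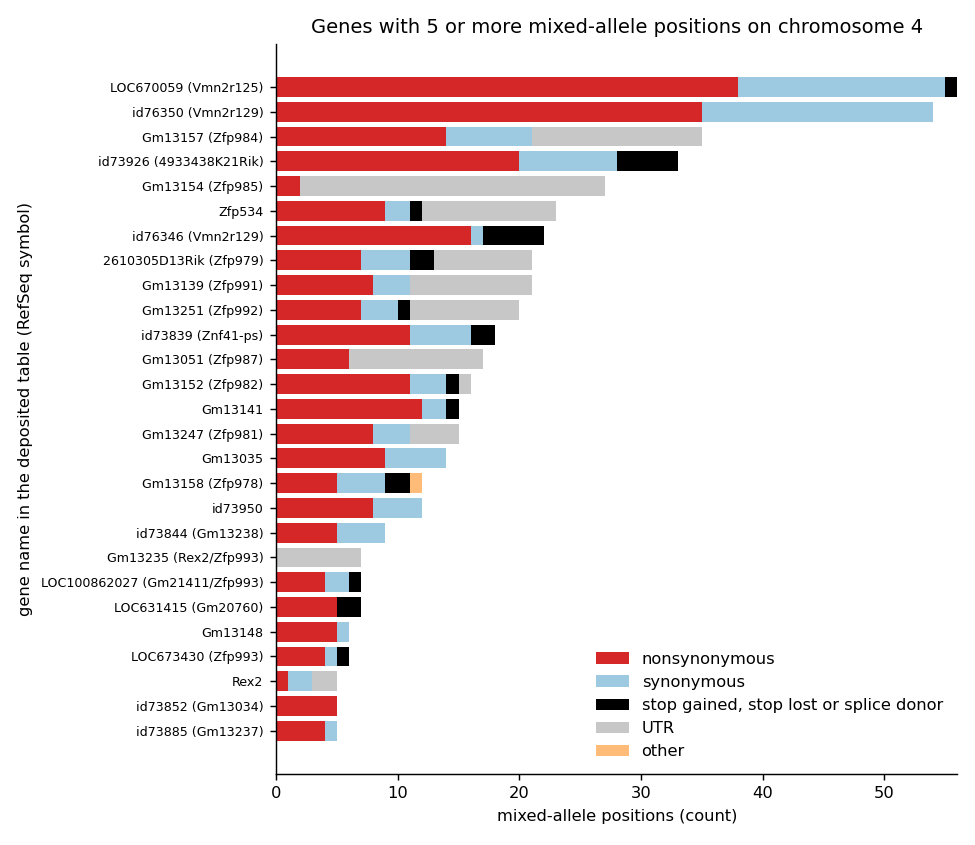
Number of mixed-allele positions (x axis, count) in each of the 27 genes with at least 5, named as in the deposited table with the RefSeq symbol in brackets and coloured by effect. LOC670059 (Vmn2r125) and id76350 (Vmn2r129) have the longest bars, with 56 and 54 positions, id76346 adds 22 in Vmn2r129, and the zinc finger genes below them hold many nonsynonymous and UTR positions.

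The 555 positions fell in 60 gene names, 27 of which had at least 5 positions and together held 488 (87.9%), as the plot of positions per gene shows. The 5 names with most positions held 205 (36.9%), and 18 names had a single position. Many deposited names differ from the RefSeq symbols, and 177 positions stood under 16 names of the form id followed by a number. By the deposited names, 30 positions in 4 genes were zinc finger genes. By RefSeq at the same coordinates there were 238 positions in 16 zinc finger genes, since Gm13157 is Zfp984, Gm13154 is Zfp985, 2610305D13Rik is Zfp979, Gm13139 is Zfp991, Gm13251 is Zfp992, Gm13051 is Zfp987, Gm13152 is Zfp982 and Gm13247 is Zfp981. Likewise, all 132 positions of the end group (LOC670059, id76350 and id76346) lie in Vmn2r125 and Vmn2r129, which the name filter did not remove. Of the other gene families of chromosome 4 looked up, the major urinary protein genes held 4 positions in 3 genes. Genes of the Ccl19/Ccl21/Ccl27 array, Pramel, Skint, type I interferon, Cyp4 and Fam205 families held 0.

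Depth was not used by the rule beyond its minimum of 10 reads, and it was high at the mixed positions. The lowest, median and highest depth was 10, 84 and 277 reads in O48, 10, 90 and 253 in DSM, and 12, 87 and 271 in DSMD. At the positions of chromosome 4 with a share of at least 80%, the median was 31 reads in each line and the highest values were 57, 53 and 51. Relative depth was taken as the depth divided by the line's median at the 4098 autosomal positions with a share of at least 80% in all 3 lines, which was 31 reads in O48, 32 in DSM and 31 in DSMD. The median relative depth of the mixed positions was 2.71, 2.81 and 2.81, against 1, 0.97 and 1 for the comparison positions. In all 3 lines together, 79.3% of the mixed positions and 0% of the comparison positions reached 1.5 times the line median. Mixed positions of other chromosomes lay between, with 54.1%. Because positions of a gene share reads, no test over positions was run.

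The genes of the array differed in which of their parts held the positions. In Zfp984, 14 of 35 positions were nonsynonymous, 7 synonymous and the rest in UTRs, whereas in Zfp985, 25 of 27 lay in UTRs, 16 of them in the 3′ UTR and 9 in the 5′ UTR. All 7 positions of Gm13235 lay in the 5′ UTR. In Gm13141, 12 of 15 were nonsynonymous, and in id73926, 20 of 33. Dense groups stood beside each other: 155 positions lay between 147507605 and 147809787, 107 between 146891835 and 147281700, and 52 between 146449070 and 146749521. The last of these had the high relative depths of 4.03, 4.25 and 3.89 in O48, DSM and DSMD.

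**Figure D2:**
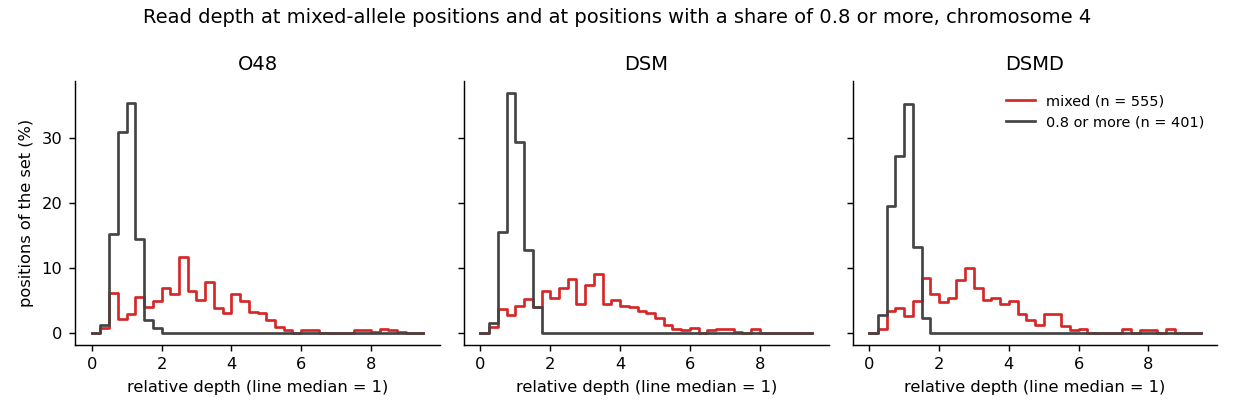
Relative depth (x axis, depth divided by the line median) in O48, DSM and DSMD as a share of each set (y axis, %), for the 555 mixed-allele positions (red) and the 401 positions of chromosome 4 with an alternate share of 0.8 or more (dark grey). The dark grey curves peak near 1 and the red curves spread from below 1 to about 9.

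Reference and alternate reads were also set against the same unit. Reads with the reference base alone had a median of 1.84, 1.88 and 1.74 line medians in O48, DSM and DSMD, and reads with the alternate base 0.74, 0.75 and 0.74. Thus the reference reads of a typical mixed position outnumbered all reads of a typical comparison position in each line.

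The depth differed between the places. Its relative median was 2.71, 2.78 and 2.84 in the array and 3.02, 3.30 and 2.87 at the end of the chromosome, but 0.77, 0.88 and 0.84 at the scattered positions. Of the 24 array genes with at least 5 positions, 21, 21 and 22 had a median relative depth of 1.5 or more in O48, DSM and DSMD. Gene medians in O48 ran from 13 reads in Rex2, a zinc finger gene, to 158 reads in LOC100862027 (Gm21411). Zfp982 had medians of 134.5, 155 and 145 reads, and the 6 positions of Zfp993 listed as LOC673430 had 148.5, 175.5 and 166. Both exceeded 4 line medians in each line, whereas the Zfp993 position listed as id73898 had 19, 28 and 32 reads. Zfp984 with 57, 71 and 57 reads and Zfp991 with 40, 41 and 48 reads were closer to the comparison positions. The highest single depth, 277 reads in O48, was at H566Y of Zfp992 (C146467519T), where 24 reads had the alternate base (8.66%, 95% exact Clopper-Pearson interval 5.63% to 12.6%). Intervals here cover counting error only.

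**Figure D3:**
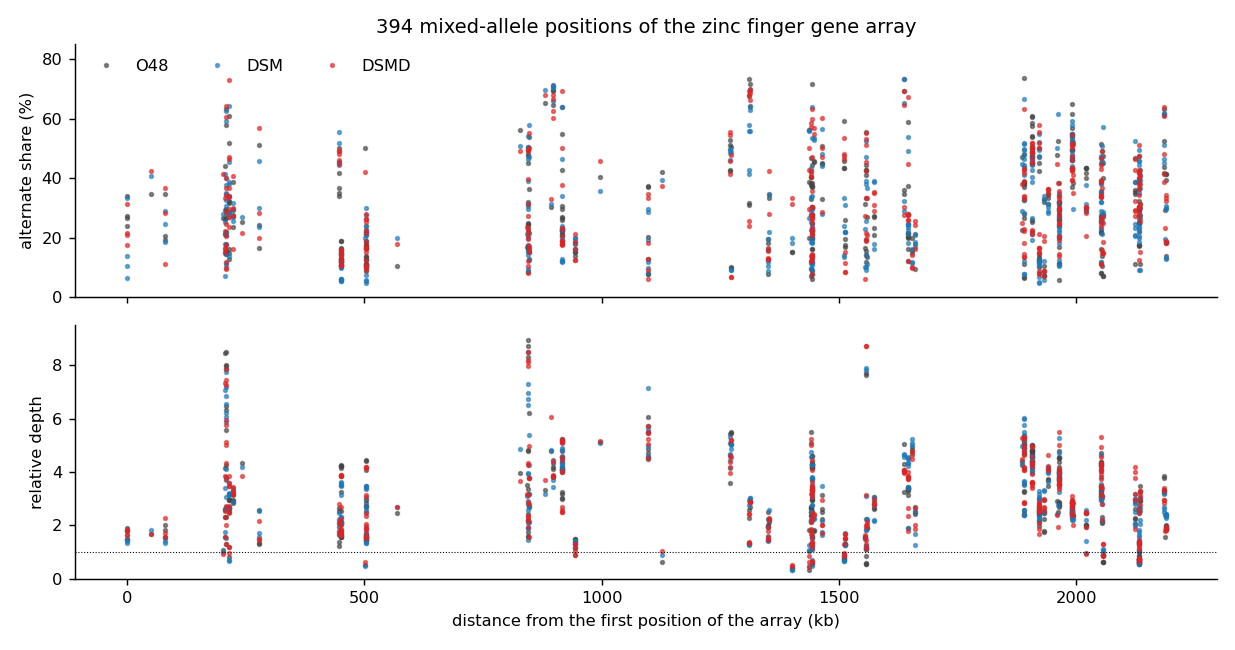
The mixed-allele positions of the zinc finger gene array by distance from its first position (x axis, kb), with the alternate share in each line (upper panel, %) and the relative depth (lower panel, dotted line at 1). Positions stand in narrow columns, with shares from 5% to over 70% and depths mostly above 1.

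The alternate shares are given as a description, since they chose the positions. Their medians were 26.8% in O48, 28.7% in DSM and 27.9% in DSMD, and the middle part of the positions, between the quartiles, ran from 16.7% to 42.2%, 18.4% to 44.3% and 18.0% to 42.5%. Of all reads at these positions, 31%, 31.7% and 31.2% had the alternate base. With the reads of the 3 lines pooled, the median share was alike over the range of depth. It was 27.8% at positions below 1.5 line medians, 29.0% from 1.5 to below 2.5, 28.1% from 2.5 to below 3.5 and 27.7% above. The highest pooled share rose over these ranges, with 54.7%, 65.4%, 67.9% and 77.2%.

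Gene medians covered a wide range. In O48 the medians of the 24 array genes with at least 5 positions ran from 13.2% in id73950 to 67.5% in LOC631415 (Gm20760). Zfp979 had 46.8%, 48% and 42.7% over its 21 positions in O48, DSM and DSMD, with every position in O48 between 37.0% and 65.0%. Gm13035 had 13.8%, 10.4% and 12.5% over 14 positions, none above 19.0% in O48. The 4 positions of id73882 (1700095A21Rik) lay near the other end, with 69.3%, 70.5% and 64.5%. Other genes held low and high shares side by side. Zfp982 ran from 6.58% to 73.6% in O48, and id73926 (4933438K21Rik, non-coding or a pseudogene by RefSeq) from 6.06% to 71.4%. Over the 555 positions the share correlated between lines with Pearson r of 0.83 for O48 and DSM, 0.89 for O48 and DSMD and 0.83 for DSM and DSMD (Spearman rho 0.79, 0.86 and 0.80), across positions that share reads within each line. Over the 29 scattered positions r was 0.44, 0.58 and 0.42.

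The shares of further genes are given as medians in O48, DSM and DSMD. Zfp985 had 28.5%, 26.9% and 28.9% and Zfp534 27%, 28.6% and 26.9%, within 2 points of the median of all positions. Zfp981 had 26.9%, 22.9% and 20.5%. The 6 positions of Zfp993 listed as LOC673430, with 16.5%, 15.6% and 15.5%, and Zfp987 with 13.5%, 20.9% and 17.2% were lower in every line. The Zfp993 position listed as id73898 had 42.1%, 39.3% and 37.5%. Gm13141 with 49%, 44.7% and 48.5% and LOC100862027 (Gm21411) with 42.9%, 48.6% and 45.6% were higher in every line. At the end of the chromosome Vmn2r129 had 25.4%, 26% and 24% over the 54 positions listed as id76350, and 17.6%, 18.6% and 22% over the 22 listed as id76346.

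The deepest nonsynonymous positions allow the narrowest intervals. S439T of Zfp991 had 105 alternate of 237 reads in O48 (44.3%, interval 37.9% to 50.9%), 132 of 251 in DSM (52.6%) and 123 of 271 in DSMD (45.4%). L789P of Znf41-ps had 57.8%, 62.6% and 60.7%, while R732C and N737I of the same pseudogene had 14.8% and 15.4% in O48, 11% and 11.4% in DSM, and 9.52% and 9.78% in DSMD. Shares of 1 gene thus differed by more than these intervals within a library, since the interval in O48 was 51.4% to 64% for L789P and 10.7% to 19.6% for R732C. C99Y and R114K of Zfp982 had 48.2% and 43.8% in O48, 51.8% and 49.7% in DSM, and 42.7% and 43% in DSMD. F883L of Znf41-ps had 21.9%, 21.8% and 20.8%. S572G of Zfp993 had 24 of 188, 18 of 180 and 10 of 163 alternate reads, and Y81F of Gm21411 17 of 169, 15 of 161 and 11 of 161. Y81F and the stop gain Y81* are changes of neighbouring bases in the same codon with the same alternate counts in every line, listed singly.

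Some positions lay close to the limits of the rule. Just inside were T126438682C of Ago1, with 1 alternate read of 20 in DSM (5%), and T156338484G of Vmn2r129 with 75%, 77.6% and 78.5%. Just outside were T156334562G of Vmn2r129, with 4.88% in DSMD, G147553299A of Zfp985, with 4.84% in DSM, G146466199A of Zfp992, with 81.4% in DSM, and A147064083G of id73926, with 82.5% in DSMD. A lowest share under 10% was found at 76 of the positions and a highest share of 70% or more at 19.

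**Figure D4:**
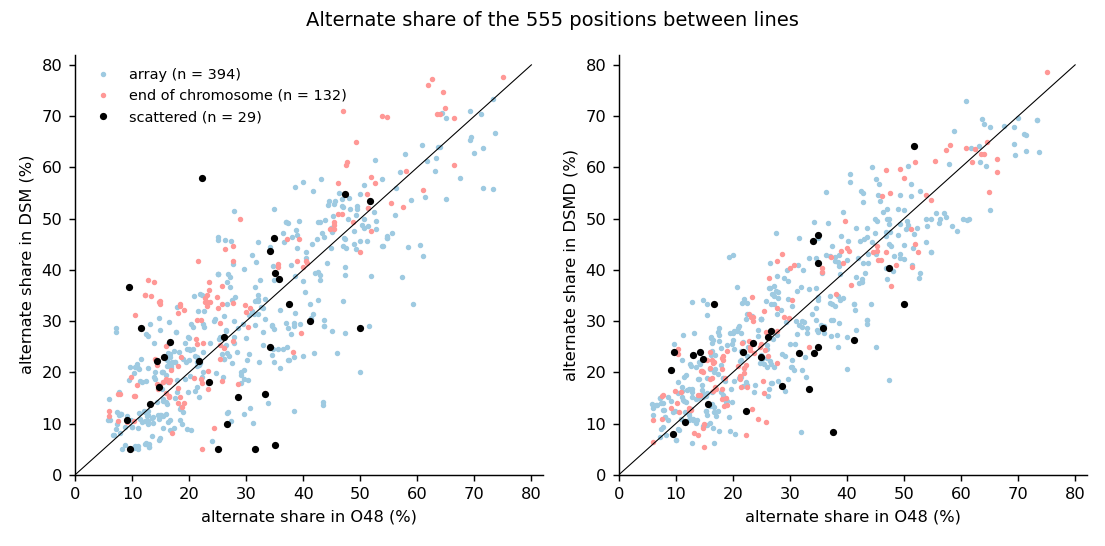
Alternate share of each mixed-allele position in O48 (x axis, %) against DSM and DSMD (y axes, %), coloured by place, with the line of equal shares. Most points lie near the line, many of the end group lie above it in DSM, and the scattered positions spread widest.

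The rule used no difference between lines, although it bounded the share in each. The lines were compared position by position with a two-sided Fisher's exact test on reference and alternate reads, adjusted by Benjamini-Hochberg over all positions of the table tested in that pair. Between O48 and DSM, 11 of the 555 positions (1.98%) were called at an adjusted p below 0.05, where 4.04% of the whole table and 1.04% of the mixed positions of other chromosomes were called. Between O48 and DSMD, 2 positions (0.36%) were called, against 5.13% and 1.23%. Between DSM and DSMD, 10 positions (1.8%) were called, against 4.36% and 0.963%. With the adjustment over mixed positions alone, 2, 0 and 5 positions were called in these pairs. The test compares 1 library with another. The rule held the share of every line between its limits, so the largest changes could not be called here. The p-values here and below make no allowance for this choice of positions, and the percentages are not like for like with the whole table. On chromosome 4 there were 229 positions mixed in at least 1 line with 0 alternate reads in another.

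The calls fell on 19 positions in 10 genes, 4 of which were called in more than 1 pair. Among these 19, the widest gap between lines was at C61Y of Zfp982 (G147512369A), with 36 alternate of 129 reads in O48 (27.9%), 85 of 165 in DSM (51.5%) and 27 of 148 in DSMD (18.2%). DSM was higher than O48 (adjusted p = 0.00298) and than DSMD (adjusted p = 1.8e-07) by the Fisher exact test. In the 3′ UTR of Zfp985, A147585194T fell from 54 of 141 reads in O48 (38.3%) to 15 of 121 in DSM (12.4%, Fisher exact adjusted p = 0.000233), with 32 of 117 in DSMD (27.4%). S439T of Zfp992 (G146467139C) was at 32.0% in O48 and 31.3% in DSM but 8.33% in DSMD, lower than in O48 with adjusted p = 0.0127 and than in DSM with adjusted p = 0.0299 by the exact test. Single calls were also made in id73844 (Gm13238), id73926, Zfp991, Gm13141 and Zfp534, and 2 neighbouring positions were called in Zfp981.

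Vmn2r125 held the other 9 calls, and 8 of them, from L20 to N60S of the deposited frame, lay within 122 bp. There the share in DSM was the highest of the 3 lines at 6 positions and the lowest at 2. At L23W (T156344346G), 16 of 107 reads in O48 (15%), 36 of 106 in DSM (34.0%) and 9 of 91 in DSMD (9.89%) had the alternate base. These neighbours share reads, so they are not separate observations. Some had nearly equal counts, such as 15 of 102, 35 of 104 and 8 of 87 at T24S. L20 differed, with 42 of 106, 29 of 105 and 47 of 95. Over all 56 positions of the gene, DSM had the highest share at 42, and its median was 34.2% against 23.6% in O48 and 27% in DSMD. Over the 132 positions of the end group DSM was highest at 77, whereas in the array O48, DSM and DSMD were highest at 132, 125 and 137 of 394, with ties counted for the first of the lines. The reads per position of Vmn2r125 were alike in the lines, with medians of 82, 82 and 81.

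Protein effects are those of highest impact in the deposited annotation. There were 287 nonsynonymous (51.7%) and 113 synonymous positions (20.4%), 74 in 3′ UTRs, 42 in 5′ UTRs and 10 that gained a start codon. The number of nonsynonymous per synonymous positions was 2.54, against 1.18 at the positions of chromosome 4 with at least 80% and 2.17 at mixed positions of other chromosomes. The array held 193 nonsynonymous and 74 synonymous positions, the end of the chromosome 89 and 37. These counts follow the deposited reading frames, and only 150 of the 555 positions lie in a RefSeq coding sequence. Transitions made up 56.8% of the positions, against 72.3% at the comparison positions of chromosome 4 and 54.7% at mixed positions elsewhere. The effects were assigned to each position alone, although neighbours in a codon often had equal counts.

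A stop codon was gained at 14 positions and lost at 12, and 2 lay at splice donors, in all 28 positions (5.05%) against 1.5% at the comparison positions of chromosome 4. Many of these reading frames are pseudogenes or non-coding in RefSeq. Of the stop gains in a RefSeq coding sequence, the deepest was K560* of Zfp992 (A146467501T), with 122 alternate of 258 reads in O48 (47.3%, interval 41.1% to 53.6%), 81 of 208 in DSM (38.9%) and 121 of 247 in DSMD (49.0%). All 3 lines thus had both bases in large numbers, and the codon is near the end of a protein of 573 residues with 11 fingers. The window at chr4:146467471-146467531 (GRCm38.p6, plus strand) shows the A of the AAA codon in capitals.
Zfp992, K560*: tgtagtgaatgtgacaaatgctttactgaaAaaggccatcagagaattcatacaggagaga

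The other stop gains in RefSeq coding sequences of zinc finger genes were L225* of Zfp979, with 46 of 84, 37 of 80 and 40 of 92 reads, Y46* of Zfp982, with 5 of 76, 6 of 77 and 12 of 88, and Y46* of Zfp534, with 2 of 28, 10 of 36 and 6 of 40. Zfp979 also lost its stop (A147613029T) in 35 of 71, 33 of 75 and 48 of 88 reads. At the position listed as a splice donor of Zfp993 (G146719387T), 20.2%, 19.2% and 18.3% of reads had the alternate base, and RefSeq places this base inside the coding exon. In Mup18, a major urinary protein gene, C61671247A was listed as R180L but gives E194* in the RefSeq frame, in 15 of 43, 18 of 39 and 15 of 32 reads. The frames with most such positions were id73926, with L496*, L196*, *540W, *322R and *115W, and id76346 (Vmn2r129), with S284*, C347*, Q350*, *358E and *423Q. In id76346 the shares in O48 were 55.4%, 38.9%, 40.4%, 16.3% and 45.3% in this order, and RefSeq reads another frame there, so none of its 3 stop gains is a stop in the RefSeq protein. LOC631415 (Gm20760) had Q242* at 64.0%, 63.9% and 68.5% and *233S at 71.4%, 55.9% and 66.3%, the latter just before the former. Others were found in Znf41-ps (*880E, *1147R), LOC100862027 (Y81*), id73882 (*131Y), id73938 (*345Q), Gm13158 (*179Y, R265*), Gm13141 (Q58*), Vmn2r125 (S64*) and at a splice donor of id62392, which lies in Slc44a1.

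In RefSeq coding sequences there were 150 mixed positions, 117 of them in 14 proteins with C2H2 fingers. Of their 85 nonsynonymous positions, 20 (23.5%) changed a residue at a DNA-contact position of a finger. Contact positions make up 8.55% of the 8889 residues of these proteins. Counted by residue, since some codons were hit at more than 1 base, 16 of the 79 changed residues were contact residues. None of the 85 changed a zinc-binding cysteine or histidine, which are also 8.55% of the residues. Other finger residues, 27.8% of the proteins, took 10 nonsynonymous positions (11.8%), and linkers, 13.7% of the proteins, took 10. Residues outside fingers, 41.4% of the proteins, took 45 (52.9%). Of 28 synonymous positions, 1 lay at a contact residue and 2 at zinc-binding residues. Positions in the same codon or finger are not independent, and no test was run.

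**Figure D5:**
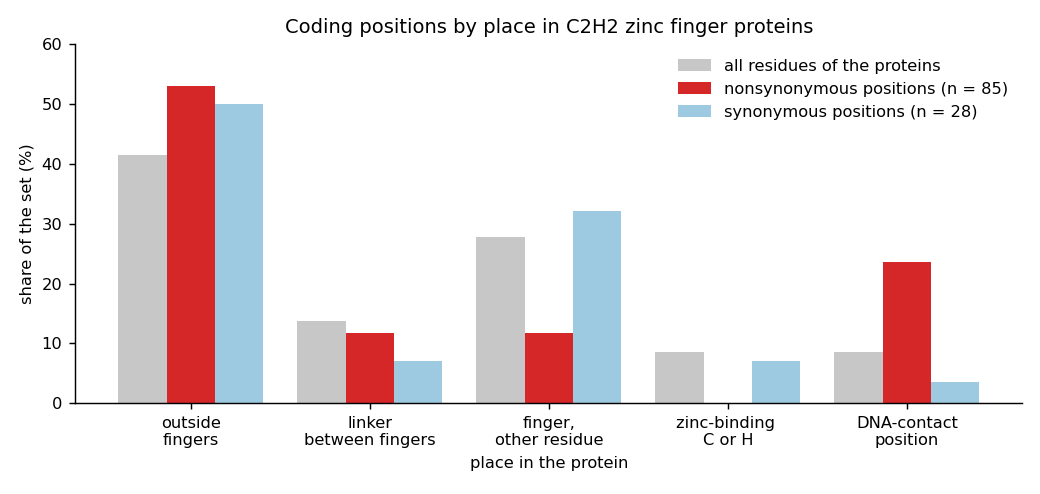
Places of coding mixed-allele positions in 14 C2H2 zinc finger proteins (x axis), as a share of each set (y axis, %), for all residues, the 85 nonsynonymous and the 28 synonymous positions. DNA-contact positions hold 8.55% of residues and 23.5% of nonsynonymous positions, and zinc-binding residues hold 8.55% and 0%.

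The 20 contact changes hit 16 residues of 11 fingers in 6 proteins: Zfp984, Zfp981, Zfp980, Zfp993, Zfp987 and Zfp534. Their shares in O48 ran from 7.80% to 35%. Zfp984 had 9 of them, and 8 lay in its neighbouring fingers 10 and 11, shown on the coding strand at chr4:147754784-147754907 (GRCm38.p6, minus strand) with the 8 bases in capitals.
Zfp984, fingers 10 and 11: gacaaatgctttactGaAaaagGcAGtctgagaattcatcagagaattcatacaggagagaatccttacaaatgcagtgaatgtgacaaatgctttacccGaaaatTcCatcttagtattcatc

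In finger 10 these were E501Q, E501D, G503A, S504R and S504N. The last 3 of them had the same counts, 5 of 20 reads in O48 (25%), 9 of 23 in DSM (39.1%) and 7 of 23 in DSMD (30.4%). In finger 11, R529Q, F531S and H532N had 8 of 27, 9 of 31 and 10 of 31 reads in O48, with shares of 29.6%, 29.0% and 32.3%. Counts within each finger were thus close to each other. Finger 6 of Zfp981 carried 4 changes in 2 neighbouring codons, G392C, G392V, Y393N and Y393S, at 30.7%, 29.6%, 26.6% and 26.9% in O48 and 13.0%, 11.9%, 12.1% and 12.2% in DSM. Of these, G392C (Fisher exact adjusted p = 0.0346) and G392V (adjusted p = 0.0363) were called between O48 and DSM, and the window at chr4:146537765-146537825 (GRCm38.p6, plus strand) has the 4 bases in capitals.
Zfp981, finger 6: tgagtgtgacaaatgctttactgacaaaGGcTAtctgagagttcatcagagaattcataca

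The remaining contact changes were F340I in Zfp981, D432G and G516S in Zfp980, S572G and G600S in Zfp993, I562S in Zfp987, H252Y in Zfp984 and Q646H in Zfp534. G516S of Zfp980 had 17 of 49, 12 of 49 and 20 of 71 alternate reads, and G600S of Zfp993 had 11 of 141, 12 of 147 and 13 of 140. Both windows with the alternate base are found at the same place in the coding sequence of Zfp978, the middle capital of the Zfp978 stretch printed above.

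This search was made for all positions. The 31 bases around each position, with the reference base or with the alternate base, were looked up on both strands of every sequence of GRCm38.p6, the position itself left out. The window with the alternate base was found elsewhere for 213 of the 555 positions (38.4%), against 3.74% of the comparison positions of chromosome 4 and 21.8% of mixed positions on other chromosomes. The window with the reference base was found elsewhere for 398 (71.7%), against 9.98% and 41.4%. By place, with overlaps, 239 of the 398 had a match in or near the array, 54 elsewhere on chromosome 4 and 136 on another chromosome. A C57BL/6J fix patch matched 202, a C57BL/6J contig without a place 55 and sequence of another strain 224. A match on a patch or on another strain need not be a second copy. Of the 213, 153 had a match on a chromosome, 27 only on a C57BL/6J fix patch or contig without a place, and 33 only on sequence of another strain, while for 342 positions the alternate window was found nowhere. In the array, 113 of 394 positions had their alternate base in the same window elsewhere in the array. A match is a description of the reference and does not show where a read came from.

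Some alternates of a gene lay together at another place with the same spacing. On chromosome 4 this held for 19 of the 60 gene names, with alternates of 50 of the 555 positions. For this, 2 or more were asked for at 1 place, and 5 positions with over 200 matches were left out. Znf41-ps had 4 alternates in an exon of Zfp992, 638294 bp away, and Vmn2r129 had 4 in Vmn2r125, 16406 bp away. Zfp993 and Zfp980 both matched Zfp978, with 3 and 2 alternates. Gm13212, a zinc finger gene with 20 fingers by RefSeq, had 3 of its 4 alternates (C58R, S107G and Q114K) within the span of Zfp978, 1636242 bp away. Counting every sequence of the build, 23 genes had such a place, among them Gm13141 and Zfp982 with 6 alternates each on sequence of another strain, and Vmn2r125 with 6 on a C57BL/6J contig without a place. The fix patch MG4310_MG4311_PATCH held the alternate windows of 91 positions, 89 of them in the array, and for 59 of the 91 it lacked the reference window. It held both windows for 32 positions and the reference window alone for 159.

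The 29 scattered positions differed in kind. By the deposited effects 21 lay in UTRs. They included genes outside the families looked up above, such as Kdm4a, a histone demethylase, Nfib, a transcription factor, and Ago1, an Argonaute protein listed as Eif2c1. A run of at least 5 equal bases within 15 bases of the position was found for 14 of 29 (48.3%), against 42 of 394 (10.7%) in the array, 16 of 132 (12.1%) at the end of the chromosome and 60 of 401 (15%) at the comparison positions. In Car8, 3 positions within 6 bp had 26.1%, 21.7% and 14.3% in O48. At Dmbx1 (A115917670G) the shares were 22.2%, 57.9% and 12.5% at depths of 18, 19 and 16 reads. No scattered position was called between lines, but there were only 29, with median depths of 24, 28 and 26 reads in O48, DSM and DSMD. Recovery of changes at such depths was not tested. Higher depths were seen in Dph2, a gene of diphthamide synthesis, where A117891966G had 51.7%, 53.4% and 64.2% at 58, 73 and 53 reads.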

How the data were processed

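Whole-genome sequencing of 3 haploid ESC lines (1 library each) was used. The submitters' processing notes list CASAVA 1.8.2, BWA 0.7.12, SAMtools, Picard, GATK and mm10, with no roles, and the caller's settings are not given in the sources used here. The authors deposited 1 table of exonic variants with whole-number counts of reads at the site, reference reads and alternate reads per line, not normalized. The deposited alternate reads and genotypes hold joined values where a position has several alternate bases, and such positions (6 on chromosome 4) were not used.

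Entries were reduced to 1 per position with the effect of highest impact. At all 11544 positions the deposited reference base matched GRCm38.p6, and RefSeq of this build gave genes, coding sequences and windows. Fingers were found in translated coding sequences as C, 2 residues, C, 12 residues, H, 3 to 5 residues, H. Lines were compared by two-sided Fisher's exact tests with Benjamini-Hochberg adjustment over the table. In simulated data of the 10881 positions tested for O48 against DSM, 188 of 200 changes of 35 percentage points at a depth of at least 60 were recovered, and 9 unchanged positions were called. The widest gap among the 19 called positions, from 18.2% in DSMD to 51.5% in DSM at C61Y of Zfp982, was smaller than 35 points. Recovery of gaps below 35 points, or at depths below 60, was not tested. Named genes are those with at least 5 positions, a stop or splice change or a call between lines. Those with the 10 deepest nonsynonymous positions and those of the gene families listed are also named. Genes of scattered positions, contact changes, copies and thresholds were picked for naming with their values known. Some positions are not reported here by name. The positions and lists were chosen with earlier results of these data known. The tools were matplotlib 3.10.9, biopython 1.88, numba 0.67.0, scipy 1.17.1, numpy 2.4.6 and pandas 2.3.3 in Python 3.11.15. Alternatives were other depth and share limits, genotypes, windows, gaps, adjustments and tests.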

Additional observations from a re-analysis of the deposited data

How the results depend on the processing

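Of the values recomputed under alternatives, 99 stayed within the limits set for them and 17 moved. With shares from 20% to below 80%, 312 positions remained and the median shares were 39.3%, 41.1% and 40.8% in O48, DSM and DSMD, by construction. The share of positions in the 5 genes with most positions was 32.4% when the rule was asked of O48 alone and 32.9% without positions in Vmn2r genes. Without the latter, 46.8% were nonsynonymous, and this alternative and the array alone were added after seeing the data. Alternate windows elsewhere were found for 48.8% of positions with 21 bases, 24.7% with 51 bases and 27.6% on chromosomes only. Positions grouped into 17 groups with a gap of 1000000 bp and 59 with 10000 bp.

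Calls between lines changed most. Adjusted over mixed positions alone, 2, 0 and 5 positions were called for O48 against DSM, O48 against DSMD and DSM against DSMD, and the chi-square test with continuity correction called 2, 1 and 7 in these pairs. Unadjusted p below 0.05 was reached by 64 (11.5%), 21 (3.78%) and 52 (9.37%) of the 555 positions by the Fisher exact test. The share of the whole table at this limit is not given here, so these counts are not read as differences between lines. The number of calls therefore depends on the adjustment and the test. No paired analysis was possible because each line has 1 library. At 23 positions the lowest depth was under 20 reads, so that a share rests on few reads. At 20 reads, 1 alternate read gave 5% with an exact interval from 0.127% to 24.9%.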
